A study of Mus musculus with 10 samples.

Results

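The genes described here encode the proteins that hold epithelial and endothelial cells together: claudins, occludin and the zonula occludens (ZO) proteins of tight junctions, the cadherins, and the cadherins and plaque proteins of desmosomes. Members were all genes in the array table with a probe set annotated to that gene alone and a symbol of the form Cldn, Cdh, Dsg or Dsc followed by a number, or equal to Tjp1, Tjp3, Ocln, Dsp, Jup or Pkp1 to Pkp4. This gave 55 of 17813 genes: 20 claudins, 20 cadherins, 3 genes of the tight junction plaque and occludin group (Tjp1, Tjp3 and Ocln), 6 desmosomal cadherins and 6 genes of the desmosomal plaque.

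The study asked which signals change in the progenitor cells at the distal tips of the mouse lung between early and late lung development. At E17.5, GFP+ cells were sorted by flow cytometry from lungs that had been dissociated with trypsin, after tamoxifen (150 µg per g body weight) was given to the mother at E16.5. At E11.5, tip epithelium was microdissected after a short dispase treatment. Each stage had 5 arrays, labelled as biological replicates, and the labels give embryos of both stages the genotype Id2-CreER; Rosa26R-fGFP. CreER is expressed from the Id2 locus and tamoxifen switches on a heritable GFP label, so the sorted E17.5 cells hold tip progenitors and a small number of their recent descendants. The stage and the way the cells were isolated therefore cannot be told apart. No source used here says that the replicates came from separate litters, so the p-values measure the spread between these arrays, which may be in part technical.

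Tight junctions lie at the apical border of epithelial cells and seal the space between neighbours. Claudins form their strands and set which ions and how much water can pass, while occludin is built into the same strands and the ZO proteins link them to actin. Adherens junctions lie below and are built from classical cadherins, whose tails bind catenins. Desmosomes are spot-like contacts in which desmogleins and desmocollins bind plakoglobin and plakophilins, and desmoplakin ties this plaque to keratin filaments. In the lung, tight junctions keep the airspace fluid apart from the tissue, and the claudins present differ between airway, alveolar and endothelial cells.

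All values are log2 signals as deposited, 1 value per array, so a difference of 1 is a change of 2-fold. Array medians lay between 7.14 and 7.23 for E17.5, against 7.01 to 7.14 for E11.5, and the upper quartile reached 10.04 at E17.5 and 9.46 at E11.5. Arrays of one stage correlated at 0.984 to 0.993 across probe sets at E17.5 and at 0.988 to 0.996 at E11.5, and arrays of different stages at 0.819 to 0.847. Of 16 epithelial marker genes 10 rose at E17.5, 4 fell and 2 were not called, with a mean signal between 12.26 and 12.55 in E17.5 cells, against 11.39 to 11.55 in E11.5 cells. Of 9 distal tip markers 3 rose, 3 fell and 3 were not called. The last include the tip transcription factor Sox9, which averaged 9.58 ± 0.37 at E17.5 and 9.60 ± 0.09 at E11.5 (SD, n = 5 each). Markers of other cell types also differed. The mean of 22 endothelial markers lay between 8.63 and 10.51 in E17.5 cells, against 5.42 to 6.31 in E11.5 cells, and 19 of them rose while none fell. For 14 leukocyte markers this mean lay between 9.63 and 10.26 in E17.5 cells, against 5.73 to 6.38 in E11.5 cells, and 13 of them rose while none fell. Among markers of differentiated lung epithelium, 10 of 12 rose for alveolar type II cells (mean 12.24 to 12.56 in E17.5 cells, against 7.66 to 7.91 in E11.5 cells), 9 of 10 for alveolar type I cells (11.51 to 12.17 in E17.5 cells, against 8.58 to 8.71 in E11.5 cells) and 6 of 9 for bronchiolar cells (8.83 to 9.53 in E17.5 cells, against 6.25 to 6.46 in E11.5 cells). On these lists Lpcat1 (-4.73), Etv5 (-1.35), Igfbp2 (-1.58), Sox2 (-4.43) and Cckar (-1.14) fell, and Upk3a was not called. Of 8 erythroid markers 4 fell, among them the embryonic globins Hba-x (-6.72), Hbb-bh1 (-6.04) and Hbb-y (-7.84), and 1 rose. In bulk samples of this kind, fewer cells of a type and less RNA per cell cannot be told apart.

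Among the 55 junction genes 16 rose at E17.5, 14 fell and 25 were not called (limma, Benjamini-Hochberg adjusted p under 0.05 over all 17813 genes). That is 29.1% higher and 25.5% lower, against 36.9% and 31.5% of all genes tested, so neither share was above that of all genes. A change of 2-fold or more was called for 10 genes upward and 10 downward, where 24.2% of all genes were up and 16.3% down by that much. In 13 genes every E17.5 array was above every E11.5 array (32.3% of all genes), and in 13 every E17.5 array was below (26.3% of all genes). The median difference was -0.05 over the junction genes and 0.03 over all genes. The changes ran both ways within most families: claudins split 7 to 5, cadherins 3 to 5, and the desmosomal plaque 4 to 2. For 28 members the mean signal stayed below the median of all probe sets (7.18) at both stages, and "dim" refers to such a signal. Among all 17813 genes 6891 were dim in this way. Of the 28 dim members 3 were higher and 6 lower, and of the 27 others 13 were higher and 8 lower. The share called was not split in this way for all genes. For 11 members (Cdh23, Cldn1, Cldn10, Cldn12, Cldn18, Cldn3, Dsc2, Dsc3, Dsg2, Jup and Tjp1) the signal came from a probe set whose name carries a suffix for probes shared between transcripts or sequences.

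**Figure D1:**
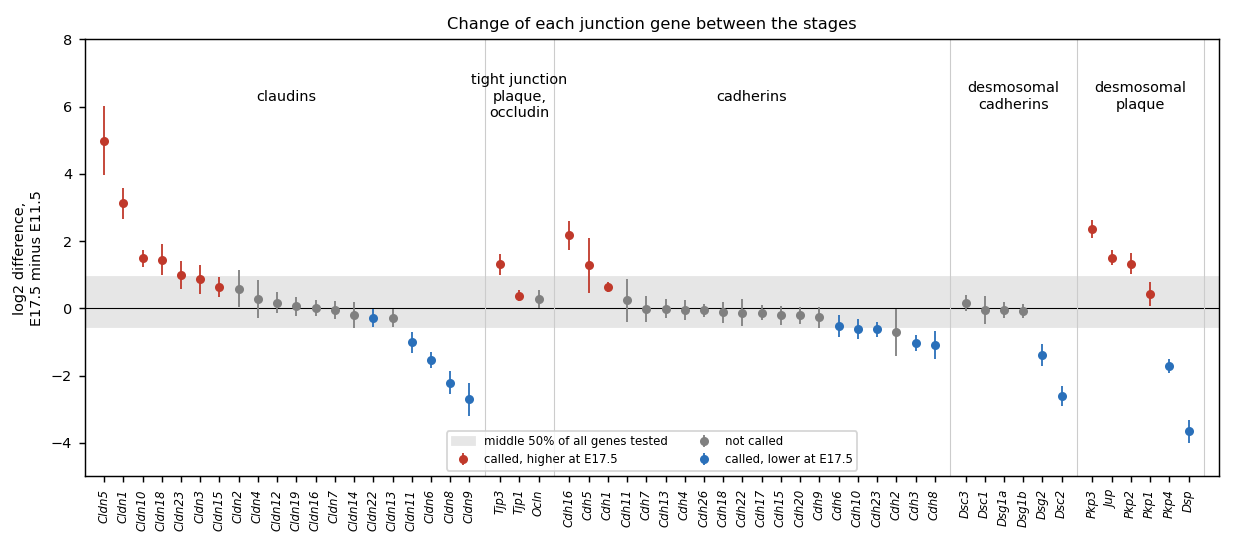
Difference in log2 signal, E17.5 minus E11.5, for each of the 55 junction genes, grouped by family and ordered by size within it. Points are fitted differences, bars are 95% confidence intervals, red points are called higher, blue points called lower and grey points not called, and the grey band spans the middle 50% of all genes tested (-0.55 to 0.94). Claudins reach from 4.99 for Cldn5 to -2.70 for Cldn9, and the lowest value of any member is -3.66 for Dsp.

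Among the claudins, E17.5 cells had more Cldn5, Cldn1, Cldn10, Cldn18, Cldn23, Cldn3 and Cldn15 signal, and less Cldn9, Cldn8, Cldn6, Cldn11 and Cldn22. The genes that were higher include claudins known from alveolar and airway epithelium (Cldn18, Cldn3 and Cldn10) and from endothelium (Cldn5), and those that were lower include the pair Cldn6 and Cldn9, of which Cldn6 is known from embryonic epithelia. Not every claudin of lung epithelium rose: Cldn4 (0.28) and Cldn7 (-0.05) were not called. Cldn3 lost its call after quantile normalization (0.33). The median difference of the 20 claudins was 0.11.

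Promoter windows of 3 of these claudins are shown because Cldn5 and Cldn1 had the largest rises and Cldn6 is the embryonic claudin among those that fell. Each window is the 250 bases before the annotated start of the gene, from RefSeq on GRCm38.p6, written 5′ to 3′ on the strand of the gene. Capitals mark GGGCGG or its reverse CCGCCC (the GC box bound by Sp and Klf factors), CAGGTG or CACCTG (the E-box bound by Snail and Zeb repressors) and AACCNGTT or AACNGGTT (a motif bound by Grainyhead-like factors), and no base lies in more than 1 of these matches.
Cldn5, chr16:18776597-18776846, plus strand: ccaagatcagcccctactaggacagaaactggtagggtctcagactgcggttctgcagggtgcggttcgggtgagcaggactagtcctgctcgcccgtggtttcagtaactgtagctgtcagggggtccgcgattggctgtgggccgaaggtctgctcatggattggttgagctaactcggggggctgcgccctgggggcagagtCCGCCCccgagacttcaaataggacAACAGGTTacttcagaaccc
Cldn1, chr16:26371840-26372089, minus strand: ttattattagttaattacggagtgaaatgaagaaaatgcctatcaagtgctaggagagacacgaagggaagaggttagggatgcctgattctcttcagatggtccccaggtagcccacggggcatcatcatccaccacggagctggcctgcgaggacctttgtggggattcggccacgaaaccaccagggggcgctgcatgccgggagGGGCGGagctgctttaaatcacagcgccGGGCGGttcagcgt
Cldn6, chr17:23679115-23679364, plus strand: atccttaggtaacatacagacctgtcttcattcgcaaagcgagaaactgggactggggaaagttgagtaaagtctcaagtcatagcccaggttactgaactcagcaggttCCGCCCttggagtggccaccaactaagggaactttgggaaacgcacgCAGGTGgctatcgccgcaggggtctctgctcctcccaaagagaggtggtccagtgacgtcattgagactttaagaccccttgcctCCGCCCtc
The window of Cldn5 holds 1 GC box and 1 Grainyhead-like match, that of Cldn1 holds 2 GC boxes, and that of Cldn6 holds 2 GC boxes and 1 E-box. Windows were at hand for 33 of the 55 members, 46 windows in all since some genes have several starts, and of these members 9 were higher at E17.5, 9 lower and 15 not called. The GC box was found in 22 of the 46 windows (47.8%), against 32.7% of all 32851 windows of that length, and belonged to 19 members, 7 higher, 5 lower and 7 not called. The E-box was found in 10 of the 46 windows (21.7%), against 17.2% of all windows, and belonged to 8 members (Cdh7, Cldn14, Cldn4, Cldn6, Cldn7, Ocln, Pkp4 and Tjp3), of which 1 was higher, 2 lower and 5 not called. The Grainyhead-like motif was found in 1 of the 46 windows (2.17%), that of Cldn5, against 1.79% of all windows. A match is a run of letters and not a measured binding site.

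Cldn5, which seals endothelial junctions and is also made by alveolar type I cells, had the largest difference of any member. Its log2 signal was 10.88, 11.98, 11.36, 10.44 and 12.33 on E17.5 arrays 1 to 5, against 7.22, 4.76, 6.68, 6.44 and 6.95 on E11.5 arrays 1 to 5. The lowest E17.5 array was more than 3 log2 units above the highest E11.5 array. The mean was 11.40 ± 0.77 at E17.5 and 6.41 ± 0.97 at E11.5 (SD, n = 5 each), a difference of 4.99 (SE 0.47, 95% confidence interval 3.96 to 6.02), which is 31.8-fold (adjusted p = 1e-06). Over the E17.5 arrays Cldn5 had the same order as the mean of the endothelial markers, 8.89, 10.23, 9.46, 8.63 and 10.51, with array 5 highest and array 4 lowest, and over the E11.5 arrays the orders differed only on arrays 3 and 4. The part of endothelial RNA in this result was not tested. Leaving out any single array moved the difference between 4.58 and 5.23.

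Cldn1, best known for the water barrier of the skin, was low at E11.5. Signals of 6.85, 8.21, 7.26, 7.27 and 7.57 on the E17.5 arrays stood against 4.34, 4.06, 4.31, 4.57 and 4.26 on the E11.5 arrays. The groups were far apart, with a difference of 3.12 (SE 0.21), or 8.72-fold (adjusted p = 4.6e-08).

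Cldn10, an airway and ion-pore claudin, had signals of 12.88, 12.81, 12.61, 12.42 and 12.64 at E17.5, against 10.95, 11.26, 11.02, 11.40 and 11.30 at E11.5. All E17.5 arrays were above all E11.5 arrays and the difference was 1.49 (SE 0.12), or 2.80-fold (adjusted p = 2.4e-07). After quantile normalization it was 1.00 and still called. Cldn18, whose lung form is a main claudin of alveolar epithelium, had signals of 12.23, 11.63, 10.97, 11.20 and 11.84 at E17.5, against 9.95, 10.39, 10.27, 9.91 and 10.12 at E11.5. The groups again did not overlap, and the difference was 1.45 (SE 0.21), or 2.73-fold (adjusted p = 5.7e-05). For Cldn18 it was 0.86 and still called after quantile normalization.

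Cldn3, a sealing claudin of alveolar type II cells, rose less. Its signals were 12.54, 11.76, 11.77, 11.73 and 12.23 at E17.5, against 10.56, 11.38, 11.22, 11.27 and 11.31 at E11.5, so that the groups did not overlap but E11.5 array 1 lay below the other E11.5 arrays. The difference was 0.86 (SE 0.20), or 1.81-fold (adjusted p = 0.0019), and after quantile normalization it was 0.33 and no longer passed the test (adjusted p = 0.13). Cldn23 was higher by 0.99 (1.98-fold, adjusted p = 0.00053) with all E17.5 arrays above all E11.5 arrays. Cldn15, a pore-forming claudin of the intestine, was higher by 0.64 (adjusted p = 0.0013) although the groups overlapped, and it was dim at both stages.

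Cldn9, the closest relative of Cldn6, fell furthest among the claudins. Its signals were 5.41, 5.92, 6.68, 6.68 and 6.32 at E17.5, against 9.23, 8.81, 8.95, 8.88 and 8.67 at E11.5. The E11.5 arrays lay within a narrow band above every E17.5 array, and the difference was -2.70 (SE 0.23), or 6.52-fold (adjusted p = 3.5e-07). Cldn8, a barrier claudin of the kidney collecting duct, had signals of 6.45, 6.79, 6.66, 5.85 and 6.30 at E17.5, against 8.55, 8.48, 8.66, 8.71 and 8.72 at E11.5. It was lower by 4.64-fold (difference -2.21, SE 0.16, adjusted p = 7.3e-08), with no overlap.

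Cldn6, the embryonic claudin, had signals of 11.86, 11.79, 12.03, 12.18 and 12.06 at E17.5, against 13.27, 13.59, 13.56, 13.54 and 13.65 at E11.5. Every E17.5 array was below every E11.5 array, and the difference was -1.54 (SE 0.10), or 2.91-fold (adjusted p = 4.5e-08). The means were 11.98 ± 0.16 at E17.5 and 13.52 ± 0.15 at E11.5 (SD, n = 5 each). Cldn11, a claudin of myelin and testis, was lower by 2.01-fold (difference -1.01, adjusted p = 5.3e-05) at a low signal of 4.33 ± 0.14 at E17.5 and 5.34 ± 0.32 at E11.5. Cldn22 was lower by a small margin (difference -0.28, adjusted p = 0.049) with overlapping groups, and leaving out E17.5 array 2, 3 or 4 or E11.5 array 2, 3, 4 or 5 ended that call (adjusted p = 0.062 to 0.12). Cldn22 was dim at both stages.

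Cldn7, a claudin spread over the lateral membrane of many epithelia, had signals of 12.95, 12.69, 12.86, 12.66 and 12.63 at E17.5, against 12.39, 12.96, 12.86, 12.93 and 12.90 at E11.5. The groups overlapped and the difference was -0.05 (95% confidence interval -0.31 to 0.22, adjusted p = 0.75). Quantile normalization gave -0.45 for Cldn7, which passed the test as lower (adjusted p = 0.0034). Cldn4, which is often found together with Cldn3 in the distal lung, had signals of 10.93, 10.10, 10.29, 9.95 and 10.10 at E17.5, against 9.85, 10.90, 9.44, 9.79 and 9.99 at E11.5. E11.5 array 2 was as high as the highest E17.5 array, and the difference was 0.28 (95% confidence interval -0.29 to 0.85, adjusted p = 0.37), or 0.51 without that array (adjusted p = 0.04). Neither interval allows a change of 2-fold in Cldn7 or Cldn4 between the stages.

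The 6 other claudins were also not called. Cldn12 differed by 0.17 (adjusted p = 0.33), and after quantile normalization by -0.39 (called lower, adjusted p = 0.039). Cldn2, the cation and water pore of leaky epithelia, differed by 0.59 (adjusted p = 0.058), and it passed as higher after quantile normalization (0.64, adjusted p = 0.037) and without E17.5 array 5 (0.81, adjusted p = 0.0043). Cldn13 differed by -0.29 (adjusted p = 0.057), and it passed as lower after median centring (-0.42, adjusted p = 0.0079), without E17.5 array 1 (-0.33, adjusted p = 0.041) and without E11.5 array 4 (-0.36, adjusted p = 0.018). The kidney claudins Cldn16 and Cldn19 differed by 0.01 and 0.06 and the inner ear and kidney claudin Cldn14 by -0.19. All of these except Cldn12 stayed below the median signal of all probe sets at both stages.

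**Figure D2:**
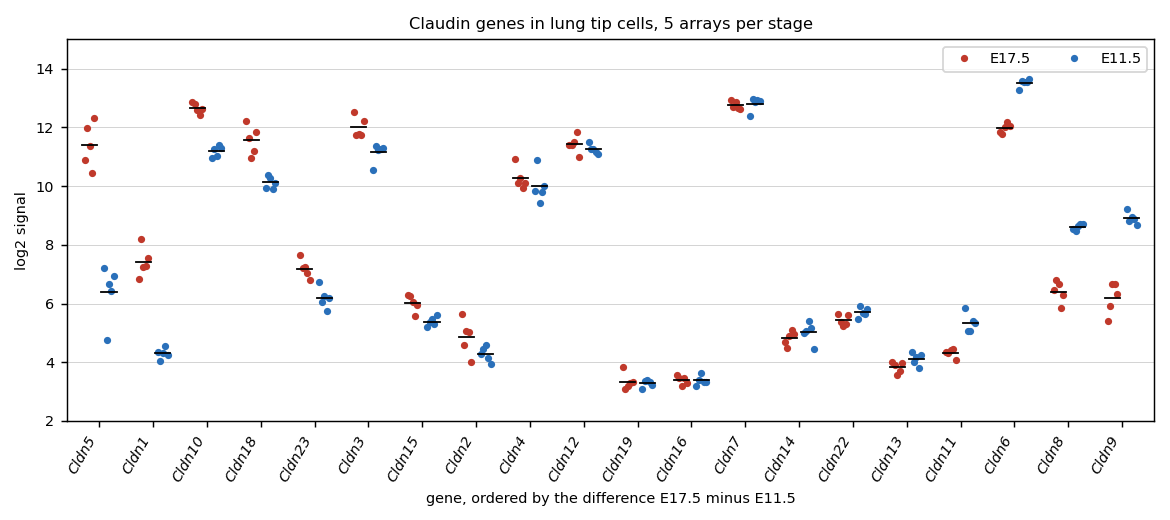
Log2 signal of the 20 claudin genes on each array, with E17.5 in red to the left and E11.5 in blue to the right of each gene, ordered by the difference. Each point is 1 array and the black lines are means of 5 arrays. Cldn5 and Cldn1 stand apart on the left, Cldn6, Cldn8 and Cldn9 on the right, and Cldn7 is high and overlapping.

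The epithelial marker mean was highest on E17.5 array 1 (12.55) and lowest on E11.5 array 1 (11.39). E17.5 array 1 was the highest of its stage for 12 of the 20 claudins and the lowest for 2, Cldn1 and Cldn9. The 12 were Cldn3, Cldn4, Cldn7, Cldn10, Cldn18 and Cldn23, and the dim Cldn2, Cldn13, Cldn15, Cldn16, Cldn19 and Cldn22. E11.5 array 1 was the lowest of its stage for 8 claudins (Cldn3, Cldn6, Cldn7, Cldn10 and the dim Cldn15, Cldn16, Cldn19 and Cldn22). It was the highest for 6 (Cldn5, Cldn9, Cldn11, Cldn12, Cldn13 and Cldn23). The share of all genes with array 1 highest or lowest was not counted. The mean of the mesenchymal markers ran the other way on these arrays, with the lowest E17.5 value on array 1 (7.77) and the highest E11.5 value on array 1 (8.19). The part of these differences between arrays, and of the higher alveolar and bronchiolar markers at E17.5, in the claudin results was not tested.

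Of the ZO genes, which encode scaffolds of the tight junction, Tjp3 was higher at E17.5, and so was Tjp1 on the deposited scale but not after quantile normalization. Tjp3 (ZO-3), which is made almost only by epithelial cells, had signals of 10.82, 10.75, 11.11, 11.25 and 10.80 at E17.5, against 9.98, 9.63, 9.59, 9.77 and 9.22 at E11.5. All E17.5 arrays lay above all E11.5 arrays, with a difference of 1.31 (SE 0.15), or 2.47-fold (adjusted p = 5.8e-06). For Tjp3 it was 0.71 and still called after quantile normalization. Its promoter window is shown because it is the only one of a gene that was higher to hold the E-box, in capitals below, at position -108 from the annotated start.
Tjp3, chr10:81291582-81291831, minus strand: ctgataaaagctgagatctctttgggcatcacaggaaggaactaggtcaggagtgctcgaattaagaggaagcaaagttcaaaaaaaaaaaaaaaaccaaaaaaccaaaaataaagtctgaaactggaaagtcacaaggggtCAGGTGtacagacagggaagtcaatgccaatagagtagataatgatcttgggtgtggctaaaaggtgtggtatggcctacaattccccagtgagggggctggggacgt
A second annotated start of Tjp3 also has this motif, at position -17.

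Tjp1 (ZO-1), which is found in epithelial and endothelial cells alike, had signals of 13.12, 13.26, 13.15, 13.05 and 13.15 at E17.5, against 12.76, 12.76, 12.86, 12.72 and 12.76 at E11.5. The spread within each stage was small (SD 0.08 at E17.5 and 0.05 at E11.5), so a difference of only 0.37 (SE 0.07, 1.30-fold) passed the test (adjusted p = 0.00069) without overlap. This call depended on the scale: after quantile normalization the difference was -0.04 (adjusted p = 0.69). Ocln, which encodes occludin, had signals of 11.91, 11.87, 11.62, 11.38 and 11.72 at E17.5, against 11.13, 11.52, 11.51, 11.42 and 11.57 at E11.5. The groups overlapped through E17.5 array 4, and the difference of 0.27 (95% confidence interval 0.00 to 0.54) did not pass the test (adjusted p = 0.069). Without that array it was 0.35 (adjusted p = 0.016), and after quantile normalization it was -0.27 (adjusted p = 0.058).

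**Figure D3:**
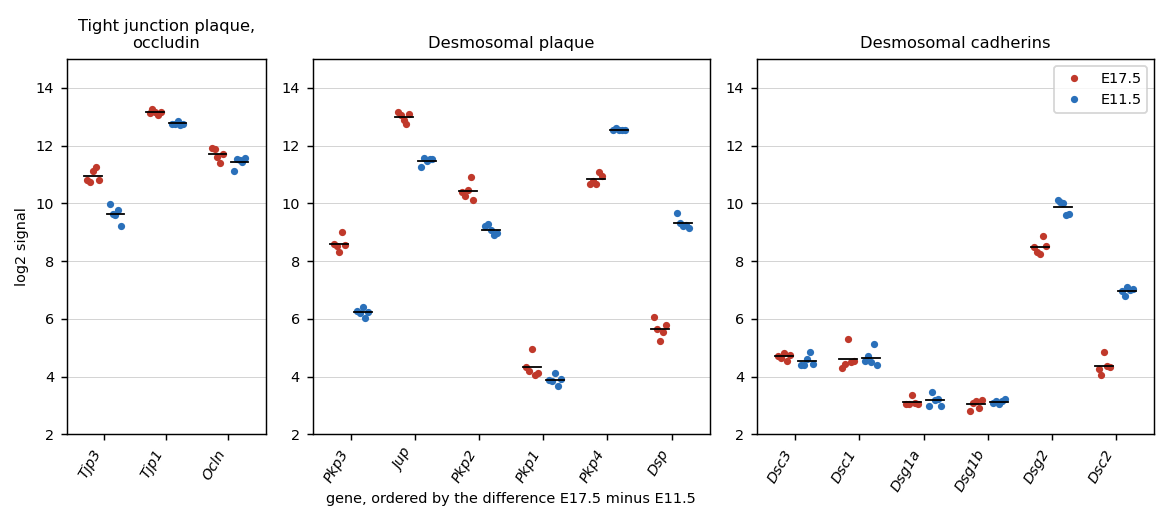
Log2 signal on each array for the tight junction plaque and occludin, the desmosomal plaque and the desmosomal cadherins, with E17.5 in red to the left and E11.5 in blue to the right of each gene. Points are arrays and black lines are means of 5 arrays. Pkp3, Jup and Pkp2 are higher at E17.5, while Dsp, Pkp4, Dsc2 and Dsg2 are lower, each with no overlap between the stages.

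Genes of the desmosome moved in opposite directions. The cadherins Dsg2 and Dsc2 fell, and so did desmoplakin (Dsp), while plakoglobin (Jup), Pkp2 and Pkp3 rose. All 6 plaque genes passed the test, 4 higher and 2 lower, with differences from -3.66 to 2.37. Over all genes tested, 36.9% were higher and 31.5% lower. Among the plaque genes Pkp1 was dim and its groups overlapped.

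Dsp, the linker between the desmosomal plaque and keratin, showed the largest fall of any member, measured by 1 probe set. Its signals were 6.05, 5.66, 5.23, 5.56 and 5.78 at E17.5, against 9.65, 9.31, 9.20, 9.26 and 9.15 at E11.5. The means were 5.66 ± 0.30 at E17.5 and 9.32 ± 0.20 at E11.5 (SD, n = 5 each), a difference of -3.66 (SE 0.15), or 12.6-fold (adjusted p = 4.5e-10). The lowest E11.5 array was more than 3 log2 units above the highest E17.5 array. Its promoter window, shown because no other member fell as far, has 72.4% G and C and holds 4 GC boxes, in capitals.
Dsp, chr13:38151044-38151293, plus strand: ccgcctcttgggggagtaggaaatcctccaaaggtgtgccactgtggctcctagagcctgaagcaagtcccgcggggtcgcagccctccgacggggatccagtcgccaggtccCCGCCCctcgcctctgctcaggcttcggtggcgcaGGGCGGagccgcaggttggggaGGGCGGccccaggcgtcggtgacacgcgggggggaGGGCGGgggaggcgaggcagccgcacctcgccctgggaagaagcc

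Dsc2, the desmocollin of simple epithelia, had signals of 4.25, 4.06, 4.86, 4.38 and 4.32 at E17.5, against 6.96, 6.78, 7.09, 7.00 and 7.04 at E11.5. It was lower by 6.08-fold (difference -2.60, SE 0.14, adjusted p = 4.2e-09) and no array overlapped. Dsg2, the desmoglein of simple epithelia, had signals of 8.49, 8.32, 8.23, 8.88 and 8.51 at E17.5, against 10.12, 10.03, 10.02, 9.58 and 9.62 at E11.5. It was lower by 2.62-fold (difference -1.39, SE 0.15, adjusted p = 3.6e-06), again without overlap. The desmogleins and desmocollins of stratified epithelia were not called: Dsg1a differed by -0.06, Dsg1b by -0.09, Dsc1 by -0.05 and Dsc3 by 0.16, which became 0.23 and passed without E11.5 array 4 (adjusted p = 0.046). The signals of these genes stayed below the median of all probe sets at both stages. So did that of Dsc2, with means of 4.37 at E17.5 and 6.98 at E11.5.

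Jup (plakoglobin), which joins desmosomes and adherens junctions, had signals of 13.17, 13.05, 12.87, 12.74 and 13.09 at E17.5, against 11.27, 11.57, 11.47, 11.54 and 11.55 at E11.5. The E17.5 arrays were all above the E11.5 arrays, with a difference of 1.50 (SE 0.10), or 2.84-fold (adjusted p = 5.4e-08). After quantile normalization the difference was 1.03 and still called. The highest E17.5 array for Jup and the lowest E11.5 array were both replicate 1, as for the epithelial marker mean. The part of this in the result was not tested.

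Plakophilins are armadillo-repeat proteins that bind desmosomal cadherins and desmoplakin side by side. Pkp3, which is found in most epithelia, had signals of 8.60, 8.51, 8.32, 8.99 and 8.55 at E17.5, against 6.27, 6.20, 6.41, 6.02 and 6.23 at E11.5. It was higher by 5.16-fold (difference 2.37, SE 0.12, adjusted p = 4.3e-09) with no overlap. Pkp2, the plakophilin of heart and simple epithelia, had signals of 10.39, 10.24, 10.45, 10.90 and 10.11 at E17.5, against 9.21, 9.30, 9.08, 8.90 and 8.97 at E11.5. It was higher by 2.50-fold (difference 1.32, SE 0.14, adjusted p = 3.9e-06), also with no overlap. After quantile normalization the difference of Pkp2 was 0.75 and still called.

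Pkp4, a more distant relative found mainly at adherens junctions, went the other way. Its signals were 10.67, 10.79, 10.66, 11.10 and 10.96 at E17.5, against 12.55, 12.60, 12.54, 12.53 and 12.55 at E11.5. The E11.5 arrays hardly differed from each other, and the difference was -1.72 (SE 0.10), or 3.29-fold (adjusted p = 9.4e-09). Pkp1, the plakophilin of the epidermis, was dim at 4.32 ± 0.36 at E17.5 and 3.89 ± 0.15 at E11.5, and its difference of 0.43 (adjusted p = 0.032) came with overlapping groups. It was 0.30 after median centring (adjusted p = 0.14), and leaving out E17.5 array 1 or E11.5 array 1, 2, 4 or 5 ended the call (adjusted p = 0.051 to 0.078).

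Among the 20 cadherins, 3 were higher at E17.5 (Cdh16, Cdh1 and Cdh5), 5 were lower (Cdh8, Cdh3, Cdh23, Cdh10 and Cdh6) and 12 were not called. Their median difference was -0.13, and 14 of the 20 had a signal below the median of all probe sets at both stages. Of all genes tested, 36.9% were higher and 31.5% lower.

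Cdh1 (E-cadherin), the classical cadherin of epithelial adherens junctions, had signals of 13.42, 13.37, 13.33, 13.34 and 13.34 at E17.5, against 12.69, 12.74, 12.72, 12.68 and 12.74 at E11.5. The spread within each stage (SD 0.04 at E17.5 and 0.03 at E11.5) was far smaller than the gap between the stages. The difference was 0.64 (SE 0.07), or 1.56-fold (adjusted p = 3e-06), and it was 0.25 and still called after quantile normalization. Cdh16, a cadherin with a short cytoplasmic tail that is best known from kidney tubules, rose furthest. Its signals were 12.21, 12.19, 12.23, 12.78 and 12.49 at E17.5, against 10.91, 10.02, 10.05, 10.23 and 9.83 at E11.5. No array overlapped, and the difference was 2.17 (SE 0.19), or 4.51-fold (adjusted p = 6.4e-07). For Cdh16 it was 1.63 and still called after quantile normalization.

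Cdh5 (VE-cadherin), the endothelial cadherin, had signals of 6.22, 7.20, 5.66, 5.02 and 7.06 at E17.5, against 5.36, 4.51, 4.80, 4.87 and 5.21 at E11.5. E17.5 array 4 fell inside the E11.5 range, and the difference was 1.28 (SE 0.37), or 2.43-fold (adjusted p = 0.0089). Cdh5 was dim, with means of 6.23 at E17.5 and 4.95 at E11.5. The endothelial marker mean was also lowest on E17.5 array 4 (8.63) and lowest at E11.5 on array 2 (5.42), as was Cdh5. The part of endothelial RNA in this result was not tested.

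Cdh3 (P-cadherin), a classical cadherin of basal epithelial layers, had signals of 7.65, 7.59, 7.95, 8.10 and 7.84 at E17.5, against 8.78, 8.88, 9.04, 8.76 and 8.87 at E11.5. It was lower by 2.06-fold (difference -1.04, SE 0.11, adjusted p = 3.2e-06), so that E-cadherin and P-cadherin moved in opposite directions. Cdh8, a cadherin known from neurons, had signals of 6.61, 6.48, 6.83, 7.04 and 6.00 at E17.5, against 7.90, 7.86, 7.81, 7.60 and 7.23 at E11.5. It was lower by 2.13-fold (difference -1.09, SE 0.19, adjusted p = 0.00027), and neither gene overlapped between the stages.

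Cdh23, part of the tip links of inner ear hair cells, was dim throughout. Signals of 4.09, 3.86, 3.99, 3.84 and 3.74 at E17.5 stood against 4.40, 4.66, 4.72, 4.49 and 4.38 at E11.5. The difference was -0.62 (SE 0.10, adjusted p = 0.00013). Cdh10 (difference -0.61, adjusted p = 0.0012) and Cdh6 (difference -0.53, adjusted p = 0.0061) were likewise lower without overlap and dim at both stages.

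Cdh2 (N-cadherin), the classical cadherin of mesenchyme, nerve and heart, had signals of 7.39, 9.35, 8.73, 8.13 and 9.06 at E17.5, against 9.64, 9.06, 9.51, 9.03 and 8.99 at E11.5. The E17.5 arrays were spread over almost 2 log2 units, and arrays 2 and 5 lay inside the E11.5 range. The difference was -0.71 (95% confidence interval -1.42 to -0.01), which did not pass the test (adjusted p = 0.069). It passed as lower after quantile normalization (-1.18, adjusted p = 0.003) and after median centring (-0.84, adjusted p = 0.025), and without E17.5 array 2 (-0.92, adjusted p = 0.02) or array 5 (-0.84, adjusted p = 0.044). Cdh11 (OB-cadherin), a cadherin of mesenchymal cells, had signals of 9.90, 11.27, 10.79, 9.94 and 10.65 at E17.5, against 10.84, 9.72, 10.31, 10.60 and 9.89 at E11.5. The groups overlapped throughout, and the difference was 0.24 (95% confidence interval -0.40 to 0.87, adjusted p = 0.5).

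The mean of the 20 mesenchymal markers was 7.77, 8.87, 8.37, 8.02 and 8.58 on E17.5 arrays 1 to 5, against 8.19, 7.18, 7.81, 8.06 and 7.70 on E11.5 arrays 1 to 5. Of these markers 8 were higher at E17.5, 7 lower and 5 not called. The order of the E17.5 arrays for Cdh2 and the order of the E11.5 arrays for Cdh11 were those of this mean. Cdh11 at E17.5 had arrays 3 and 5 exchanged, and Cdh2 at E11.5 did not follow it, being lowest on array 5. The part of mesenchymal RNA in the values of these 2 cadherins was not tested.

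The 10 remaining cadherins, among them T-cadherin (Cdh13), the muscle cadherin Cdh15 and the intestinal cadherin Cdh17, were not called. Their differences lay between -0.27 for Cdh9 and -0.01 for Cdh13 and Cdh7, with Cdh4 at -0.05, Cdh26 at -0.06, Cdh18 at -0.11, Cdh17 and Cdh22 at -0.13 and Cdh15 and Cdh20 at -0.21. Cdh9, Cdh15, Cdh17 and Cdh20 passed as lower after median centring, and Cdh9 also without E17.5 array 4 (-0.35, adjusted p = 0.032) or E11.5 array 2 (-0.34, adjusted p = 0.045). All 10 had a signal below the median of all probe sets at both stages.

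**Figure D4:**
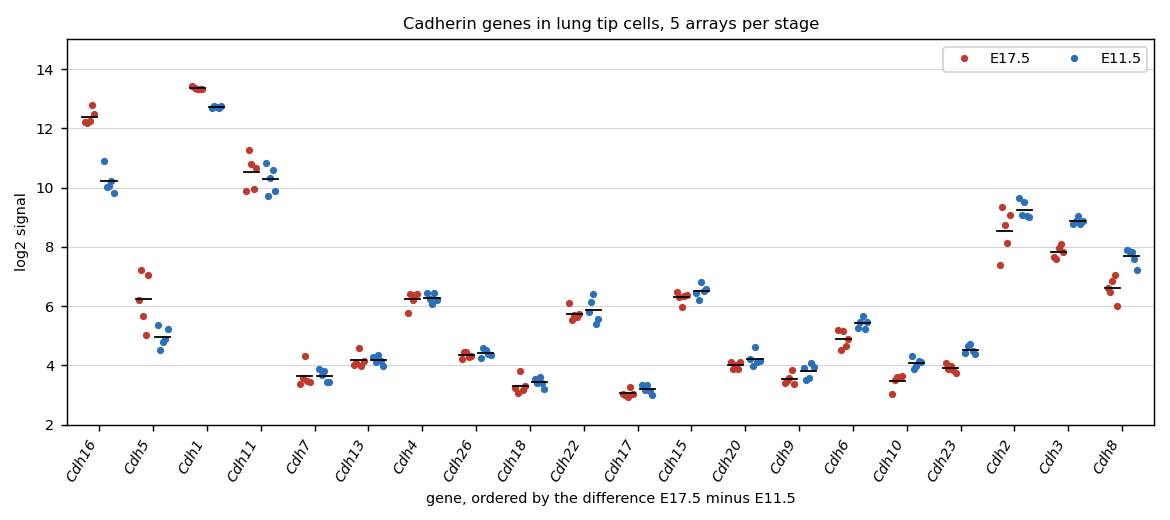
Log2 signal of the 20 cadherin genes on each array, with E17.5 in red to the left and E11.5 in blue to the right of each gene, ordered by the difference. Points are arrays and black lines are means of 5 arrays. Cdh16 and Cdh1 are separated upward, Cdh3 and Cdh8 downward, and the E17.5 arrays of Cdh2, Cdh5 and Cdh11 are spread more widely than those of Cdh1.

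**Figure D5:**
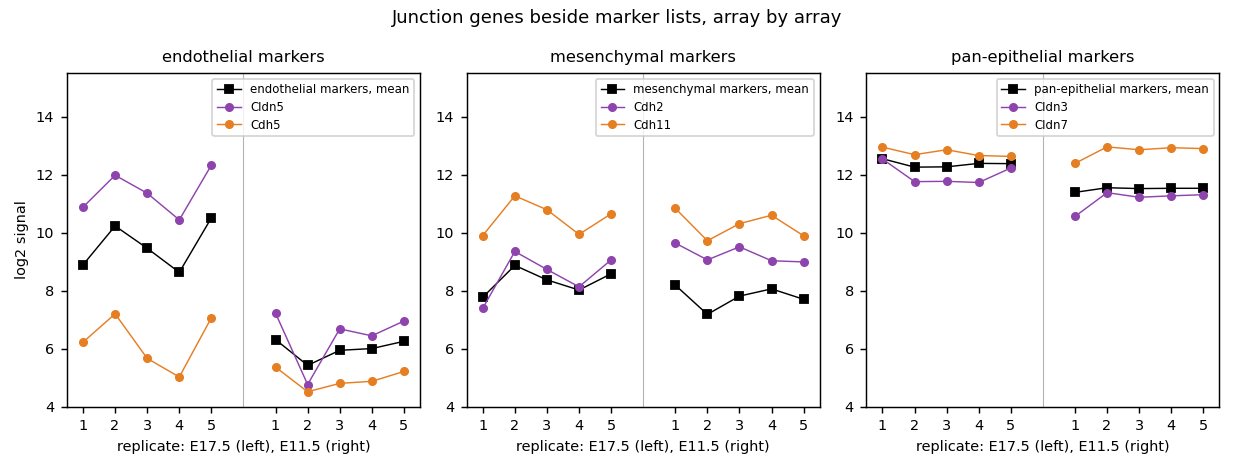
Log2 signal of Cldn5 and Cdh5 beside the mean of 22 endothelial markers, of Cdh2 and Cdh11 beside the mean of 20 mesenchymal markers, and of Cldn3 and Cldn7 beside the mean of 16 epithelial markers, for E17.5 replicates 1 to 5 on the left and E11.5 replicates 1 to 5 on the right of each panel. The lines only join values of one gene within a stage, since replicates have no order. Cldn5 is highest on E17.5 arrays 5 and 2, where the endothelial mean is also highest, and Cldn3 and Cldn7 are lowest on E11.5 array 1, where the epithelial mean is also lowest.

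Several members lie next to each other on the chromosome (gene order from the RefSeq annotation of GRCm38.p6), and 12 such pairs of neighbouring protein-coding genes were found. Only 1 of these pairs had both genes called in the same direction, Cldn6 and Cldn9, which were both lower. Cdh3 and Cdh1 are neighbours and were called in opposite directions (-1.04 and 0.64). In the others at most 1 gene was called, as for Cldn1 and Cldn16 (3.12 and 0.01), Cldn4 and Cldn3 (0.28 and 0.86) and the row Cdh8, Cdh11 and Cdh5 (-1.09, 0.24 and 1.28).

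Genes that act with these members in the same junctions also moved both ways. Of 97 partner genes on 5 lists, 43 were higher at E17.5 (44.3%), 34 lower (35.1%) and 20 not called, where 36.9% of all genes tested were higher and 31.5% lower, with a median difference of 0.05 over the partners. Of 19 adherens junction partners 10 were higher, 5 lower and 4 not called, with a median difference of 0.72, and the largest were Lmo7, an afadin- and actinin-binding protein (5.27, 38.5-fold, adjusted p = 4.1e-12), Afdn, the nectin-binding afadin (-3.92, 15.1-fold, adjusted p = 1.5e-12), Vcl, the actin-binding vinculin (3.80, 13.9-fold) and Nectin4, an adhesion receptor (3.16, 8.96-fold). Catenins of the E-cadherin complex, picked for that role, did not all move together. Ctnnb1 (β-catenin) was higher by 1.58 and Ctnnd1 (p120) by 0.72, while Ctnna1 (α-catenin) was lower (difference -1.45, adjusted p = 3.7e-06).

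Of 29 tight junction partners 14 were higher, 11 lower and 4 not called (median 0.30). The largest were Lsr, which marks contacts where 3 cells meet (-4.06, 16.7-fold, adjusted p = 3.7e-12), F11r, the adhesion molecule JAM-A (3.99, 15.9-fold, adjusted p = 5.7e-11), Prkcz, the polarity kinase PKCζ (2.93, 7.64-fold), and Marveld1, a relative of occludin by its membrane domain (2.89, 7.42-fold). Genes of other scaffolds, named after their values were seen, moved both ways. Cgn (-1.60), Cgnl1 (-1.83), Magi1 (-2.33), Pard3 (-1.19), Pard6a (-0.46) and Mpdz (-0.51) were lower. Magi3 (1.25), Patj (1.85), Pard6b (1.46) and Pard6g (1.15) were higher. Of 6 desmosome partners 3 were higher, 2 lower and 1 not called (median 0.58), with Kazn lower (-2.65) and the plaque proteins Ppl (2.60) and Evpl (1.22) and the membrane protein Perp (2.60) higher. The plakins periplakin and envoplakin, encoded by Ppl and Evpl, thus changed in the direction opposite to desmoplakin.

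Of 16 regulators of junction genes (transcription factors and the splicing factors Esrp1 and Esrp2) 8 were higher, 6 lower and 2 not called (median 0.29). The E-cadherin repressor Zeb1 (5.48, 44.7-fold, adjusted p = 1.2e-08) and the epithelial factors Grhl2 (4.55, 23.4-fold, adjusted p = 3.2e-12), Ehf (3.43, 10.8-fold) and Ovol1 (2.27, 4.83-fold) had the largest differences. Snai1, another E-cadherin repressor, was not called (-0.36, adjusted p = 0.3). Zeb1 averaged 10.93 ± 0.79 at E17.5 and 5.45 ± 0.30 at E11.5 (SD, n = 5 each). Most endothelial and leukocyte markers were also higher at E17.5, and of 20 mesenchymal markers 8 were higher and 7 lower. The part of those cells in the Zeb1 values was not tested. Of 27 protocadherins and other members of the cadherin superfamily, 8 were higher, 10 lower and 9 not called (median -0.15), and the largest differences were those of Pcdh8 (-6.04), Pcdh12, a protocadherin of endothelium (5.09), Celsr2, an adhesion receptor of planar polarity (-3.52), and Pcdh17 (3.33).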

How the data were processed

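RNA from sorted E17.5 and microdissected E11.5 lung tip cells was amplified with NuGEN Ovation kits and hybridised to Affymetrix mouse arrays, 5 per stage. The authors deposited 1 log2 signal per probe set and array, processed with Bioconductor in R. How background was corrected, how arrays were normalized and how probe sets were chosen is, in the sources used here, not given. Values ran from 2.472 to 15.03 and were used as deposited.

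Of 21204 probe sets, 17981 were annotated to 1 gene, 514 to several and 2709 had no gene listed in the platform annotation. Probe sets of 1 gene were kept, and for the 167 genes with several the one with the highest mean over the 10 arrays was used, which gave 17813 genes. All 55 junction genes matched the RefSeq annotation by symbol and by gene identifier. Only Dsc1 had more than 1 probe set, so the change of every other member rests on 1 probe set.

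E17.5 was compared with E11.5 with limma 3.58.1 (lmFit and eBayes) in R 4.3.3, two-sided, with Benjamini-Hochberg adjustment over all 17813 genes and a threshold of 0.05. The difference is E17.5 minus E11.5. Fold changes are 2 to the power of the size of the log2 difference. The script was tested on simulated data. It called 38 of 67 genes changed by 1.5-fold (56.7%), 58 of 67 changed by 2-fold (86.6%) and 65 of 66 changed by 4-fold (98.5%). Of 17613 unchanged genes 5 were called. Far fewer genes were changed in the simulation than were called here, so these shares need not hold for these data. Signals are not comparable between probe sets, and the number of arrays limits the precision.

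Values are given on every array for the main junction genes of epithelia, endothelium and mesenchyme, and, in each family, for up to 3 called genes in each direction that moved most without overlap between the stages. Other members are given by their difference. In each partner list up to 4 called genes with the largest absolute difference are named. The genes and lists were chosen with earlier results of these data known. The alternatives were quantile normalization, median centring, the mean of the probe sets of a gene, leaving out suffix probe sets, leaving out genes with a mean signal over all arrays under the median of all probe sets, a replicate block, a robust trend, array weights and leaving out each array.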

Additional observations from a re-analysis of the deposited data

Results flagged for a closer look

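In 7 of the 110 groups of 5 arrays (55 genes at 2 stages), 1 array lay further from the others than Dixon's 95% critical value of 0.71 allows, a test that chance alone passes in about 1 in 20 groups. At E11.5 these were all replicate 1 and all low: Cldn3 at 10.56 with the nearest array at 11.22, Cldn6 at 13.27 with the nearest at 13.54, and Cldn7 at 12.39 with the nearest at 12.86. The epithelial marker mean was also lowest at E11.5 on that array (11.39) and the mesenchymal marker mean highest (8.19), and their part in these values was not tested. At E17.5 the others were dim genes: replicate 1 for Cdh10 at 3.02 with the nearest array at 3.50, and replicate 3 for Cdh7 at 4.30 with the nearest at 3.58, for Dsc1 at 5.29 with the nearest at 4.53 and for Dsg1a at 3.36 with the nearest at 3.10.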

How the results depend on the processing

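Of the 30 junction genes called, 26 kept their direction and their call under each alternative that measured them, 13 higher and 13 lower, and the exceptions were Cldn3, Cldn22, Pkp1 and Tjp1. Scaling mattered for the calls of small differences and for the size of some larger ones. The median shift of a gene's difference was -0.26 under quantile normalization and -0.13 under median centring. The median difference over all genes was -0.04 and -0.10, where the deposited values gave 0.03. Calls over all genes went from 6568 higher and 5609 lower to 5676 and 6949, and to 5920 and 6576. After quantile normalization Cldn18 (0.86), Tjp3 (0.71) and Pkp2 (0.75) were still called higher but by less than 2-fold. The rises of Cldn10 (1.00) and Jup (1.03) were then close to 2-fold. Cldn1 hardly moved (3.06), and the fall of Cldn6 grew (-1.99). Quantile normalization reversed Cdh7 (0.08), Cdh11 (-0.36), Cdh13 (0.06), Cldn4 (-0.31), Cldn12 (-0.39), Ocln (-0.27) and Tjp1 (-0.04). Median centring reversed Cldn16 (-0.13) and Cldn19 (-0.08), and array weights reversed Cdh4 (0.00), Cldn16 (-0.03) and Cldn19 (-0.01). After median centring 20 members were lower, 10 of them cadherins (Cdh2, Cdh9, Cdh15, Cdh17 and Cdh20 were added). Without suffix probe sets, which left 44 members, 10 were higher, and without genes whose mean over all 10 arrays was under the median of all probe sets, which left 24, 7 members and 19 partner genes were lower, as fewer genes were tested. Leaving out 1 array gave 11740 to 12212 calls over all genes, 15 to 17 members higher, 13 to 15 lower, 43 to 45 partners higher and 32 to 34 lower. It reversed only members that were not called: Cdh4 (-0.10 to 0.07), Cdh7 (-0.18 to 0.05), Cdh13 (-0.11 to 0.04), Cdh22 (-0.24 to 0.01), Cldn16 (-0.04 to 0.07), Cldn19 (-0.07 to 0.12), Dsc1 (-0.22 to 0.07) and Dsg1a (-0.12 to 0.02). The cause of these changes was not tested.

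Both stages use replicate numbers 1 to 5. The deviations of same-numbered arrays correlated at -0.294 to 0.074, and no E17.5 array correlated best with its own number. No sign of pairing by number was therefore seen. With 5 arrays per stage this cannot show whether same-numbered arrays were handled together. With the replicate number as a block, 17 members were higher and 14 lower (Cldn2 was added as higher and Cldn13 as lower, and Cldn22 lost its call, adjusted p = 0.086), 43 partner genes were higher and 33 lower, and 11734 genes were called in all.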
